A study of Homo sapiens with 48 samples.

Results

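The amino acid transporters of the stress response are 10 genes named for their place among the known targets of the amino acid and stress responses: SLC7A1, SLC7A3, SLC7A5, SLC7A11, SLC3A2, SLC38A1, SLC38A2, SLC1A4, SLC1A5 and SLC6A9. They were taken by gene name from a table of 58870 genes, and all 10 were found. Of these, 9 passed the expression filter and entered the tests over 16697 genes. SLC7A3 did not pass. RNA freed of ribosomal RNA was sequenced from 8 stable lines of the Flp-In 293 T-REx background, which derives from human embryonic kidney and holds a site for inserting a transgene. A line is labelled only CLIP, the name of a protein tag, and another WT, for tagged wild-type UPF1. The remaining 6 express tagged UPF1 mutants, with the labels E797R, F192E and I757R for single residues and FE-ER, IR-ER and LECY, whose meaning the labels do not spell out. Cells of each line were transfected with siNT, a control siRNA without a target, or with siUPF1, directed at the endogenous gene, at 40 nM. RNA was taken after 72 h from 3 biological replicates of every line and siRNA, 16 groups and 48 libraries. Whether a line is 1 clone, how the transgene was induced and the siRNA sequences are not given in the sources used here.

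UPF1 is an RNA helicase needed for nonsense-mediated mRNA decay (NMD), which degrades transcripts with a premature stop codon and also many normal ones. Amino acid shortage and other stresses raise translation of the transcription factor ATF4, which binds amino acid response elements and switches on genes for amino acid import and synthesis. The ATF4 mRNA and several mRNAs of its pathway have been described as NMD substrates. Among the transporters, SLC7A5 (LAT1) carries leucine and other large neutral amino acids, and SLC7A11 (xCT) imports cystine in exchange for glutamate. Both are light chains that pair with the heavy chain SLC3A2 (4F2hc, CD98). SLC7A1 (CAT1) and SLC7A3 (CAT3) carry arginine and lysine. SLC38A1 (SNAT1) and SLC38A2 (SNAT2) take up glutamine and other small neutral amino acids with sodium, SLC1A4 (ASCT1) and SLC1A5 (ASCT2) exchange neutral amino acids, and SLC6A9 (GlyT1) takes up glycine.

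The transporters moved together in some lines, so the windows around their start sites were searched for the 8-letter motif TGATGNAA, a consensus of amino acid response elements, on both strands. The windows run from 250 bases before to 50 bases after each RefSeq start site (GRCh38.p14). Of the 10 genes, 8 had at least 1 window, 14 windows in all, and 5 of these genes held the motif, each in 1 window. Over the whole table, 3.62% of 35116 windows and 4.46% of 27305 genes held it. SLC7A3 and SLC7A11 had no window and were not searched. No match was found in the windows of SLC7A5, SLC38A2 and SLC6A9. A match is a run of letters and was not tested as a binding site. The 5 matches are shown on the strand of their gene with the motif, or its reverse complement, in capitals, up to 30 bases long. The stretches lie at chr13:29595663-29595692 (SLC7A1, minus strand), chr11:62881725-62881748 (SLC3A2, plus strand, at the end of its window), chr12:46266502-46266531 (SLC38A1, minus strand), chr2:64989381-64989410 (SLC1A4, plus strand) and chr19:46784893-46784922 (SLC1A5, minus strand).
SLC7A1: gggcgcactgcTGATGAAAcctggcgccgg
SLC3A2: tgcaggactccTTACATCAgctcc
SLC38A1: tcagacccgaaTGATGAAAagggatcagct
SLC1A4: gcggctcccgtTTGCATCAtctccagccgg
SLC1A5: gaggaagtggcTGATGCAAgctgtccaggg
Positions are counted from the start site of the window that held the match. With the start site itself as position 1, the first motif base lay at position 8 in SLC7A1 and 38 in SLC3A2. In SLC38A1, SLC1A4 and SLC1A5 it lay before that site, at -4, -7 and -97. SLC7A1 had 1 window. The match was in 1 of 3 windows for SLC3A2 and SLC1A5, and in 1 of 2 for SLC38A1 and SLC1A4. In SLC3A2, SLC1A5, SLC38A1 and SLC1A4 the window with the match lies inside the gene span given below, so its start site is not the outermost of the gene.

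The total expected count of a library ran from 6016999 to 14551820, and the median was 8670883. UPF1 itself was read first as the check of the labels. In CLIP its level was 111, 97.2 and 109 CPM (counts scaled to the size of the library) with siNT and 20.4, 21.3 and 19.5 CPM with siUPF1. In the 7 transgene lines it lay between 3050 and 5116 CPM with either siRNA, so the loss of the endogenous transcript could not be read there. The 9 markers of 293 cells summed to 1035 to 1474 CPM in every library, and 2 or 3 of them fell with siUPF1 in each line. Of all genes, 6.98% (WT) to 15.6% (CLIP) fell. The 7 fibroblast markers summed to 1.90 to 9.26 CPM, the 5 blood cell markers to at most 1.17 CPM and the 4 liver cell markers to at most 0.512 CPM. In bulk RNA, fewer cells that express a gene and less of its RNA per cell cannot be told apart.

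With siNT, no transporter was called in any of the 7 comparisons of lines with siNT (WT against CLIP and each mutant against WT; edgeR's quasi-likelihood test, Benjamini-Hochberg adjusted p under 0.05). In either direction, 0.012% of all genes were called in WT against CLIP, 0% in F192E, 0.018% in E797R and 0.00599% in each of the others. At an unadjusted p under 0.05, 0 or 1 transporter passed in each comparison, where 1.52% to 2.88% of all genes did, and DESeq2 and the fit with the replicate number as a block also called none. As CPM per kilobase of exon over the 24 siNT libraries, SLC1A5 stood first with a median level of 104.5 (94.7 to 121). SLC38A1 (26.6), SLC38A2 (23.8), SLC7A1 (22.3), SLC3A2 (20.7) and SLC7A5 (15.97) followed, and the ranges of each neighbouring pair overlapped. SLC7A11 (3.67), SLC1A4 (2.91) and SLC6A9 (2.81) formed a lower tier, and their ranges overlapped too. SLC7A3 had 46 counts over all 48 libraries, none in 23 of them and at most 7 in 1 library, or 0.563 CPM, and is described no further.

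With siUPF1, 8 of the 9 tested transporters rose in CLIP and none fell, against 18.1% of all genes called higher. All 9 had their siUPF1 libraries above their siNT libraries without overlap, against 23.3% of all genes. The median change of the 9 was 0.74 on the log2 scale, and that of all genes was -0.03. In LECY 8 of 9 rose as well, against 15.8% of all genes, with a median of 0.73. In WT 1 rose, SLC7A5, against 8.43% of all genes, and the median was 0.07. The siUPF1 libraries stood above the siNT libraries without overlap for 8 of 9 in LECY (20.1% of all genes) and 2 of 9 in WT (13.2%). The medians of the other mutants lay between these. In F192E 3 rose (11.8% of all genes, median 0.43), in FE-ER 2 (10.1%, 0.23), 2 also in IR-ER (9.21%, 0.28) and 1 in I757R (8.13%, 0.13). In E797R 1 rose and 1 fell, against 8.34% and 7.73% of all genes, with a median of 0.09. The single calls in WT, I757R and E797R were near the shares of all genes there. Same-numbered libraries deviated together within each knockdown, and with the number as a block the calls became 7 in F192E, 4 in IR-ER, 2 in I757R and 4 in E797R, while CLIP, LECY, WT and FE-ER again had 8, 8, 1 and 2. The block raised the calls over all genes as well: in either direction it called 34.6% in F192E, 28.2% in IR-ER, 28.5% in I757R, 27.4% in E797R, 45.6% in CLIP, 41.6% in LECY, 26.1% in WT and 31.1% in FE-ER. The 2 of 9 in I757R and FE-ER and the 1 of 9 in WT were below these shares. The transporters added with the block were SLC1A4, SLC38A2, SLC3A2 and SLC6A9 in F192E (adjusted p 0.00624, 0.0353, 0.0276 and 0.0125). In IR-ER they were SLC38A1 and SLC3A2 (0.0388 and 0.0322), in I757R SLC7A1 (0.00681), and in E797R SLC7A1 and SLC38A2 (0.0198 and 0.0461).

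**Figure D1:**
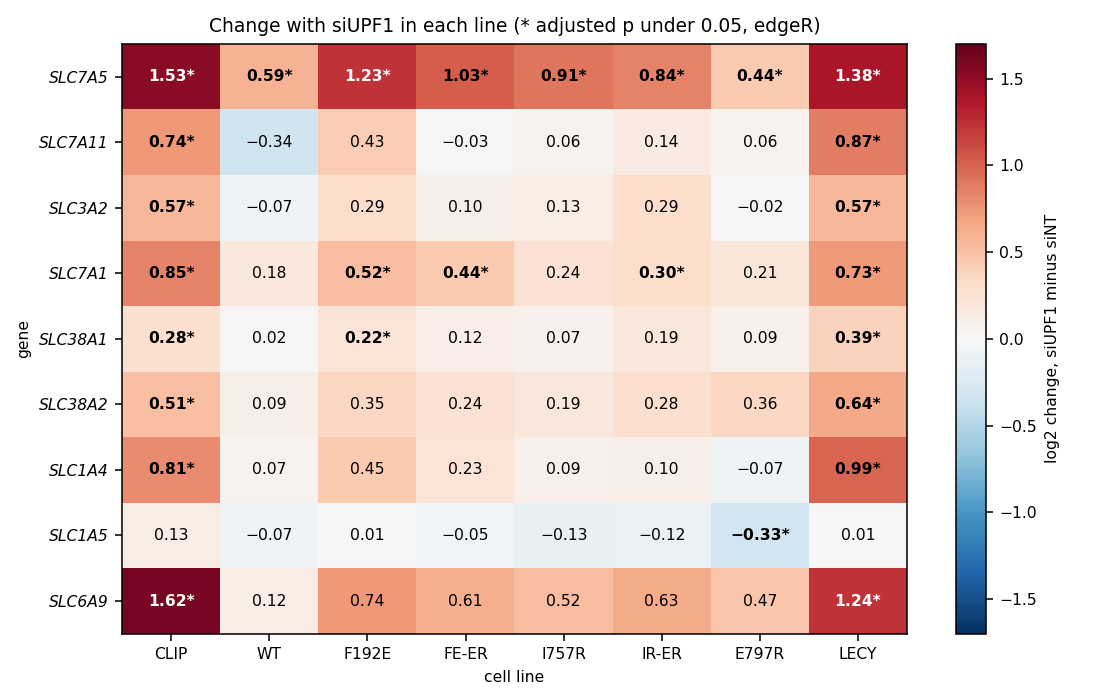
Log2 change of the 9 tested transporters (rows), siUPF1 minus siNT, for 8 lines (columns), 3 libraries a group; the number in each cell is the change, colour shows it from fall (blue) to rise (red), and a star marks an adjusted p under 0.05 (edgeR). The CLIP and LECY columns hold 8 stars each, and the WT column holds 1, for SLC7A5.

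SLC7A5, the leucine carrier, rose in every line. In CLIP its level was 77.0, 76.7 and 90.5 CPM with siNT and 232, 219 and 257 CPM with siUPF1. In WT it went from 75.7, 67.4 and 98.8 CPM to 127, 106 and 130 CPM. The groups did not overlap in either line, but the siUPF1 level of WT stayed below that of CLIP in every library. The log2 change was 1.53 ± 0.13 (SE, n = 3 a group, adjusted p 7.14e-12, edgeR) in CLIP and 0.59 ± 0.13 (adjusted p 0.00163, edgeR) in WT. LECY went from 71.4, 71.7 and 93.8 CPM to 184, 199 and 236 CPM, a change of 1.38 ± 0.13. Between them lay F192E (1.23), FE-ER (1.03), I757R (0.91) and IR-ER (0.84), and E797R had the smallest change, 0.44. In all 24 pairs of same-numbered libraries SLC7A5 was higher with siUPF1, by 1.22 to 3.01 times. The rise in E797R was lost without siNT replicate 1 or 2 or siUPF1 replicate 3 (adjusted p up to 0.11) and when only the 6 E797R libraries were fitted (0.0789). None of its 48 expected counts was whole, and RSEM divides reads that match more than 1 gene, so its values are uncertain where pseudogene copies share reads. The copy SLC7A5P1 reached at most 4.69 CPM in any library and rose in CLIP, LECY and IR-ER (log2 1.16, 1.26 and 1.14). The copy SLC7A5P2 reached at most 1.702 CPM.

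SLC7A11, the cystine carrier, rose in CLIP and LECY. In CLIP it went from 33.5, 44.5 and 39.3 CPM to 50.2, 74.7 and 71.9 CPM. In LECY it went from 30.6, 45.8 and 35.0 CPM to 59.6, 77.6 and 66.2 CPM. In WT it was 27.6, 44.4 and 47.6 CPM with siNT and 21.4, 27.9 and 44.9 CPM with siUPF1. The siUPF1 libraries lay above all siNT libraries in CLIP and LECY, while the WT groups overlapped and each WT siUPF1 library lay below its same-numbered siNT library. The log2 changes were 0.74 ± 0.22 (adjusted p 0.00704), 0.87 ± 0.22 (0.00244) and -0.34 ± 0.23 (0.35; edgeR, n = 3 a group). Without siUPF1 replicate 3 of WT, the WT value passed the test as a fall (adjusted p 0.043). In F192E the change was 0.43 (adjusted p 0.166), and in FE-ER, I757R, IR-ER and E797R it lay between -0.03 and 0.14.

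SLC3A2, the shared heavy chain, also rose in CLIP and LECY. In CLIP its level was 122, 129 and 106 CPM with siNT and 194, 175 and 160 CPM with siUPF1. In LECY it was 106, 114 and 89.7 CPM and then 155, 157 and 147 CPM. Neither pair of groups overlapped, and the change was 0.57 ± 0.17 in each line (adjusted p 0.00811 and 0.0105). Each call was lost without siNT replicate 3, the lowest of its group (adjusted p 0.0527 in CLIP and 0.068 in LECY). In WT the values were 127, 142 and 86.2 CPM and then 130, 115 and 93.9 CPM, with a change of -0.07. In all 8 lines the siNT level was lowest in replicate 3 and highest in replicate 2. SNHG1, a host gene of small nucleolar RNAs that starts next to SLC3A2 on the opposite strand, rose in CLIP and LECY (log2 0.89 and 0.93) and had -0.12 in WT. Its exons do not overlap those of SLC3A2 in GENCODE 29.

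**Figure D2:**
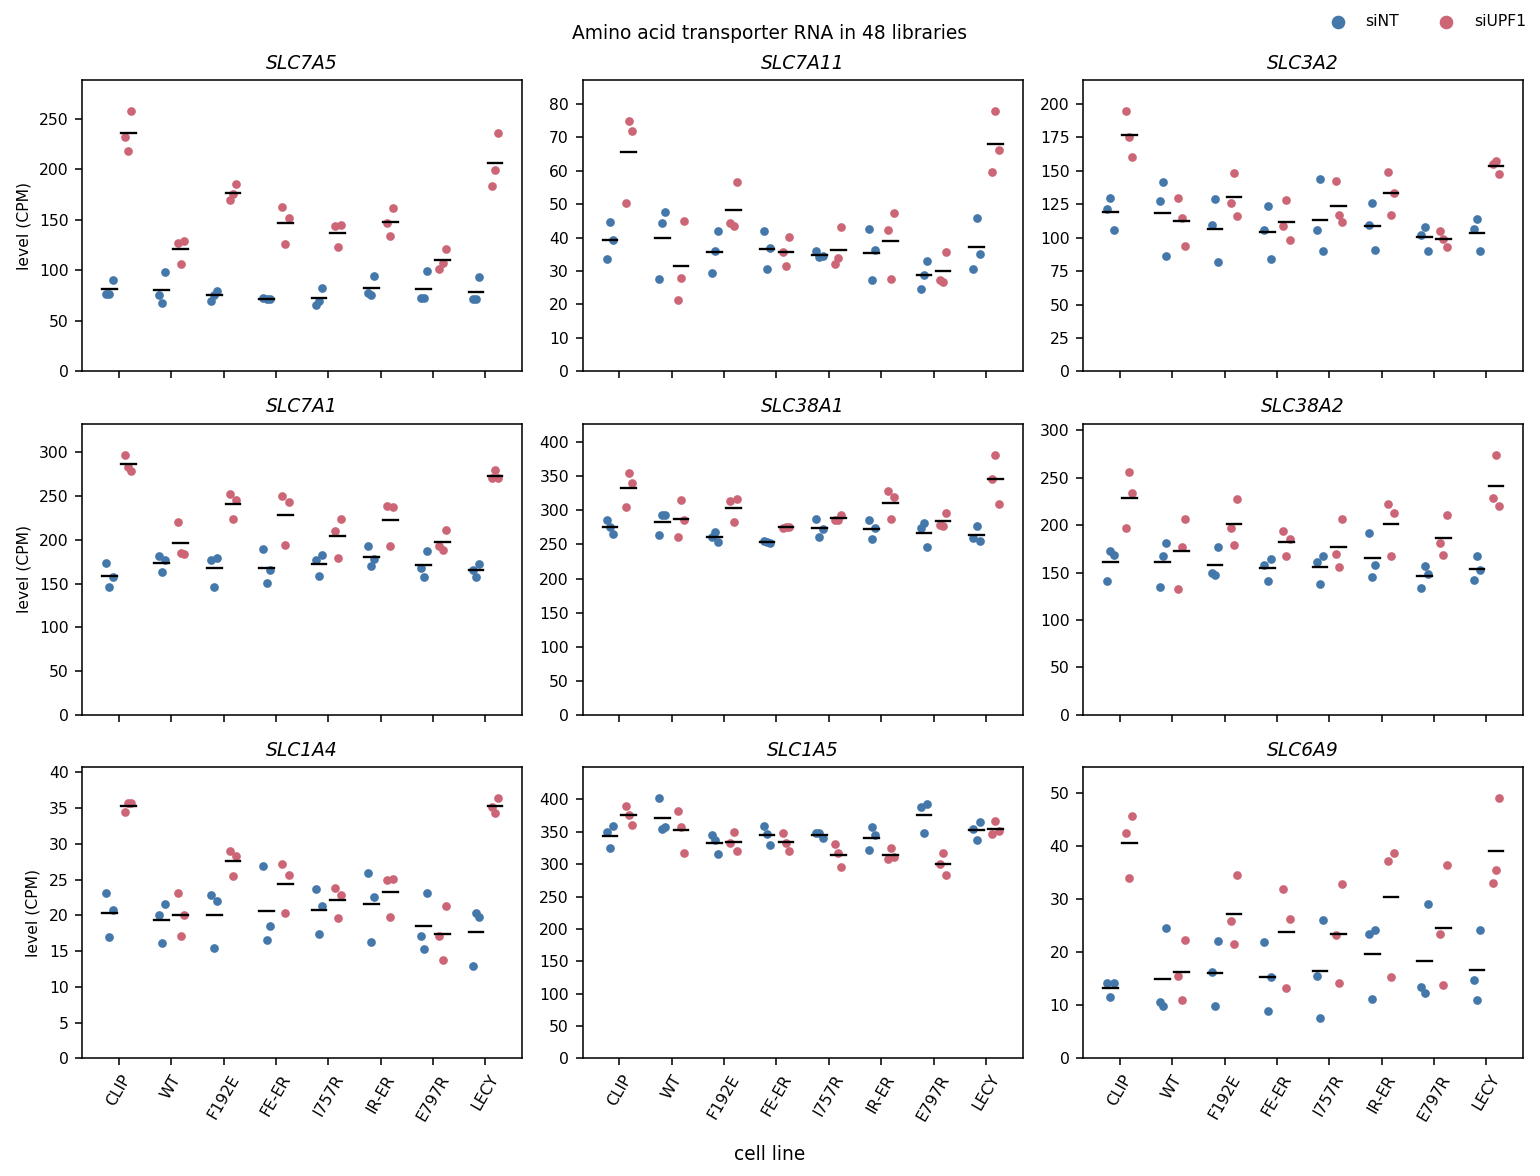
Level in CPM (vertical axis, from 0) of the 9 tested transporters in each of the 48 libraries, by line (horizontal axis) and siRNA (blue siNT, red siUPF1); points are libraries and black bars the means of 3. For SLC7A5 the red points stand above the blue ones in every line, and for SLC1A4 they stand clear of them in CLIP, LECY and F192E.

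SLC7A1, the arginine and lysine carrier, rose in 5 lines. In CLIP its level was 174, 146 and 158 CPM with siNT and 297, 283 and 279 CPM with siUPF1. In LECY it was 165, 158 and 173 CPM and then 271, 280 and 270 CPM. In WT it was 182, 163 and 177 CPM and then 221, 185 and 184 CPM. The groups stood apart in all 3 lines, but the distance in WT was small. The log2 changes were 0.85 ± 0.10 (adjusted p 1.92e-08), 0.73 ± 0.10 (6.04e-07) and 0.18 ± 0.10 (0.277; edgeR, n = 3 a group). It also rose in F192E (0.52), FE-ER (0.44) and IR-ER (0.30), and the IR-ER call was lost without siNT replicate 2 or 3 or siUPF1 replicate 1 or 3 (adjusted p up to 0.195) and when only the 6 IR-ER libraries were fitted (0.0941). SLC7A1 was higher with siUPF1 in 24 of 24 same-numbered pairs, by 1.04 to 1.94 times.

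The 2 SNAT genes, neighbours on chromosome 12, rose by smaller amounts. SLC38A1 was at 286, 276 and 265 CPM with siNT and 304, 354 and 340 CPM with siUPF1 in CLIP. In LECY it went from 259, 277 and 255 CPM to 346, 381 and 309 CPM. The groups did not overlap, and the log2 changes were 0.28 ± 0.08 (adjusted p 0.00392) and 0.39 ± 0.08 (0.000105; edgeR, n = 3 a group). F192E gave 0.22 (adjusted p 0.0286), a call lost without siNT or siUPF1 replicate 1 or 3 (up to 0.138) and when only the 6 F192E libraries were fitted (0.117). SLC38A2 was at 141, 173 and 169 CPM with siNT and 196, 256 and 234 CPM with siUPF1 in CLIP. In LECY it went from 142, 167 and 153 CPM to 229, 274 and 220 CPM. These groups also stood apart, with changes of 0.51 ± 0.14 (adjusted p 0.00454) and 0.64 ± 0.14 (0.000504). Both genes were near their siNT level in WT, with changes of 0.02 for SLC38A1 and 0.09 for SLC38A2 and overlapping groups. SLC38A2 was higher with siUPF1 in 23 of 24 same-numbered pairs and SLC38A1 in 20 of 24. SLC3A2 and SLC1A4 were also higher in 20 of 24 and SLC7A11 in 16 of 24, while SLC1A5 was lower in 17 of 24. Such pairs were not counted over all genes.

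SLC1A4 rose in CLIP from 23.1, 17.0 and 20.7 CPM to 34.4, 35.7 and 35.7 CPM. In LECY it rose from 12.9, 20.3 and 19.8 CPM to 35.1, 34.4 and 36.3 CPM. In WT it was at 20.03, 16.2 and 21.6 CPM and then 23.2, 17.1 and 19.98 CPM. The 6 siUPF1 libraries of CLIP and LECY lay within a narrow band above every other SLC1A4 library, and the WT groups overlapped. The log2 changes were 0.81 ± 0.18 (adjusted p 0.000635), 0.99 ± 0.19 (8.05e-05) and 0.07 ± 0.19 (0.88; edgeR, n = 3 a group). SLC1A5, the transporter with the highest level per kilobase, did not rise in any line. In CLIP it was at 349, 324 and 359 CPM and then 390, 376 and 360 CPM, a change of 0.13 (adjusted p 0.168) although the groups just missed each other. In E797R it fell from 388, 349 and 392 CPM to 300, 317 and 283 CPM without overlap, by 0.33 on the log2 scale (adjusted p 0.000831). That fall was the only transporter called lower in the 8 knockdowns, and it missed the threshold when only the 6 E797R libraries were fitted (adjusted p 0.0569).

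SLC6A9, the glycine transporter, had the largest fitted change of the 9 in CLIP and the widest error. It rose there from 14.2, 11.5 and 14.1 CPM to 42.4, 34.0 and 45.6 CPM, by 1.62 ± 0.45 (adjusted p 0.00537). In LECY it rose from 14.9, 10.95 and 24.3 CPM to 33.0, 35.5 and 49.0 CPM, by 1.24 ± 0.45 (adjusted p 0.0357). In WT it was at 10.7, 9.90 and 24.6 CPM and then 15.6, 10.96 and 22.3 CPM, with 0.12 (adjusted p 0.912; edgeR, n = 3 a group). The CLIP and LECY groups stood apart and the WT groups did not. Its level moved with the replicate number: over the 8 lines the siNT level ran from 7.70 to 12.4 CPM in replicate 2 and from 14.1 to 29.1 CPM in replicate 3. The LECY call was lost without siNT replicate 1 or 2 or siUPF1 replicate 2 or 3 (adjusted p up to 0.152). Within same-numbered pairs it was higher with siUPF1 in 23 of 24, by a median of 1.58 times. CCDC24, which overlaps SLC6A9, reached at most 3.61 CPM and was not called in any knockdown.

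The siUPF1 groups were compared between lines, WT with CLIP and each mutant with WT. WT was lower than CLIP for 7 of 9 transporters, against 8.61% of all genes called lower. These were SLC7A11 (-1.06 ± 0.22), SLC7A5 (-0.96 ± 0.13), SLC1A4 (-0.81 ± 0.19), SLC3A2 (-0.65 ± 0.17), SLC7A1 (-0.54 ± 0.10), SLC38A2 (-0.41 ± 0.14) and SLC6A9 (-1.30 ± 0.45). SLC38A1 (-0.21, adjusted p 0.0512) passed with the block (0.0205), which called 25.4% of all genes, and with DESeq2 (0.0174). The call of SLC6A9 (adjusted p 0.0485) was lost without any of siUPF1 replicates 1, 2 and 3 of CLIP or 1 and 2 of WT (up to 0.185). That of SLC38A2 (0.044) was lost without siUPF1 replicate 1 or 2 of WT or 2 or 3 of CLIP (up to 0.285) and with only the 6 libraries fitted (0.123), and that of SLC3A2 without siUPF1 replicate 3 of WT (0.0652). LECY was higher than WT for 6 of 9 transporters, against 8.18% of all genes called higher. These were SLC7A11 (1.101 ± 0.22), SLC1A4 (0.81 ± 0.19), SLC7A5 (0.77 ± 0.13), SLC38A2 (0.48 ± 0.14), SLC7A1 (0.48 ± 0.10) and SLC38A1 (0.27 ± 0.08). SLC6A9 (1.26, adjusted p 0.0605) and SLC3A2 (0.44, adjusted p 0.081) passed with the block (0.000187 and 0.00171), which called 24.4% of all genes, and SLC6A9 also with DESeq2 (0.0434). The calls of SLC38A1 and SLC38A2 were each lost without siUPF1 replicate 1 of WT or 2 of LECY (up to 0.171 and 0.164) and with only the 6 libraries fitted (0.203 and 0.073).

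Of the other 5 mutants, 1 had a transporter called against WT. F192E was higher than WT for SLC7A5, at 170, 176 and 186 CPM against 127, 106 and 130 CPM, with 0.55 ± 0.13 (adjusted p 0.0151; 1.51% of all genes called higher). This call was lost without siUPF1 replicate 2 of WT or 3 of F192E (adjusted p up to 0.153). With the block SLC7A1 and SLC1A4 were added in F192E (0.00509 and 0.0301), where it called 6.99% of all genes. FE-ER, I757R, IR-ER and E797R gave 0 transporter calls against WT (edgeR; 0.383%, 0.0719%, 0.174% and 0% of all genes called higher). At an unadjusted p under 0.05 they gave 2, 1, 2 and 1 of 9, beside 8.70%, 7.41%, 7.90% and 4.79% of all genes, and DESeq2 called 0 in each. The 13 mitochondrial mRNAs, read as a sign of RNA quality, were called in 0 cases in the CLIP and WT knockdowns. Of the 13, 3 rose in FE-ER, 1 in F192E and 1 in LECY, beside 10.1%, 11.8% and 15.8% of all genes. The single rises in F192E and LECY were below these shares. Their part in the transporter values was not tested.

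The difference of the knockdown effects was tested directly, as the interaction of line and siRNA. The change with siUPF1 in WT minus that in CLIP was called lower for SLC7A5 at -0.95 ± 0.19 (adjusted p 0.000933), SLC7A1 at -0.67 ± 0.15 (0.00277) and SLC7A11 at -1.09 ± 0.31 (0.0374), against 3.23% of all genes called lower. All 9 transporters had a negative difference, with a median of -0.67 where that of all genes was 0.02. The change in LECY minus that in WT was called higher for SLC7A5 at 0.80 ± 0.19 (0.0083), SLC7A11 at 1.21 ± 0.32 (0.0213), SLC7A1 at 0.55 ± 0.15 (0.022), SLC38A1 at 0.37 ± 0.11 (0.0421) and SLC1A4 at 0.92 ± 0.27 (0.0471), against 2.76% of all genes called higher. These comparisons share the WT libraries, and LECY was not compared with CLIP. The differences of SLC7A5 and SLC7A1 between WT and CLIP kept their call in every setting and without any single library. SLC7A11 between WT and CLIP was lost without any of 8 single libraries (siNT replicates 1 and 3 and siUPF1 replicates 2 and 3 of CLIP, siNT replicates 2 and 3 and siUPF1 replicates 1 and 2 of WT; adjusted p up to 0.125). Between LECY and WT, SLC7A5 was lost only without siNT replicate 3 of WT (0.0617), SLC7A1 without siNT replicate 1 or siUPF1 replicate 2 or 3 of WT or replicate 2 of either LECY group (up to 0.0696). SLC7A11, SLC38A1 and SLC1A4 were lost without 7, 8 and 9 of the 12 libraries of that comparison (up to 0.0877, 0.215 and 0.176). Fitted on the 12 libraries of a comparison alone, only SLC7A5 and SLC7A1 between WT and CLIP were called. With the block, 14 differences were called in place of 8: SLC1A4, SLC3A2 and SLC6A9 were added between WT and CLIP (0.00761, 0.00522 and 0.00606), SLC3A2 and SLC6A9 between LECY and WT (0.00584 and 0.0477) and SLC7A5 between F192E and WT (0.00107). Over all genes, in either direction, the block raised the calls from 668 to 1594 between WT and CLIP (9.55%), from 553 to 1412 between LECY and WT (8.46%) and from 30 to 94 between F192E and WT (0.563%). For F192E, FE-ER, I757R, IR-ER and E797R against WT no difference was called without the block (edgeR; 3, 1, 0, 0 and 1 of 9 at an unadjusted p under 0.05, beside 4.38%, 2.55%, 1.87%, 1.65% and 1.64% of all genes), and DESeq2 called 0 in each. In these, 0.18% of all genes were called higher in F192E, 0.00599% in FE-ER and 0% in the others.

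**Figure D3:**
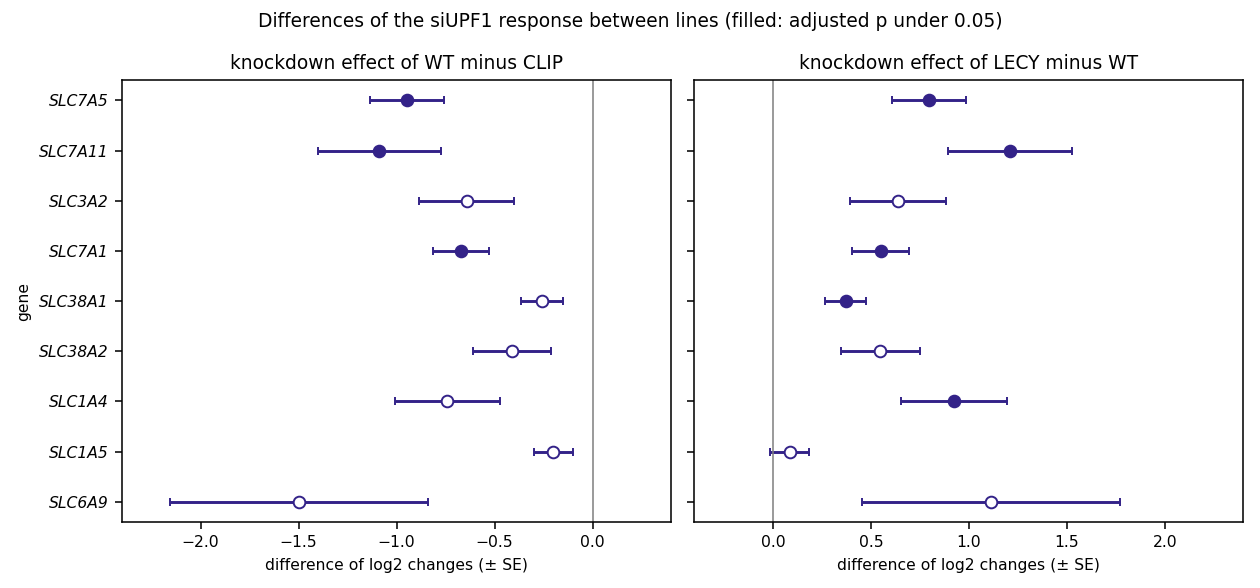
Difference of the log2 changes with siUPF1 between WT and CLIP (left) and between LECY and WT (right) for the 9 tested transporters (vertical axis), on the log2 scale (horizontal axis); points are the fitted differences, bars ± 1 SE, and filled points an adjusted p under 0.05 (edgeR). All 9 points lie below 0 on the left and all 9 above 0 on the right, with 3 and 5 filled.

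The ATF4 pathway was followed with a list of 30 other genes, all of which were tested. In CLIP 14 rose and 2 fell, beside 18.1% and 15.6% of all genes, with a median change of 0.66 where that of all genes was -0.03. The largest were STC2, a secreted stress glycoprotein (106 ± 9.55 CPM to 417 ± 63.0 CPM, SD, n = 3; log2 1.98), and GPT2, the mitochondrial alanine transaminase (1.67). SESN2, a leucine sensor that restrains mTORC1 (1.56), and PPP1R15A, the subunit that directs dephosphorylation of eIF2α (1.42), came next. PSAT1 of serine synthesis and GCLM of glutathione synthesis fell, by 0.79 and 0.75. ATF4 mRNA itself rose in CLIP by 0.85 and in LECY by 0.79, and was at -0.01 in WT. In LECY 12 of the list rose and 1 fell (15.8% and 13.6% of all genes; list median 0.56, all genes -0.01). In WT 1 rose, ALDH18A1 of proline synthesis (0.25), and 1 fell, PSAT1 (-0.85), beside 8.43% and 6.98% of all genes, and both medians were -0.01. PSAT1 fell in all 8 lines, by 0.70 to 1.05 on the log2 scale. F192E gave 9 rises, FE-ER 4, IR-ER 2, I757R 1 and E797R 1, each with PSAT1 as the only fall. Of all genes, 11.8%, 10.1%, 9.21%, 8.13% and 8.34% rose in these lines, in that order. The 4 of 30 in FE-ER were near its share. The 2 of 30 in IR-ER and the single rises in WT (8.43% of all genes), I757R and E797R were below the shares there. The knockdown effect differed between WT and CLIP for STC2 (-2.13), GPT2 (-1.39) and ATF4 (-0.85), and between LECY and WT for the same 3 genes (2.02, 1.36 and 0.79).

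**Figure D4:**
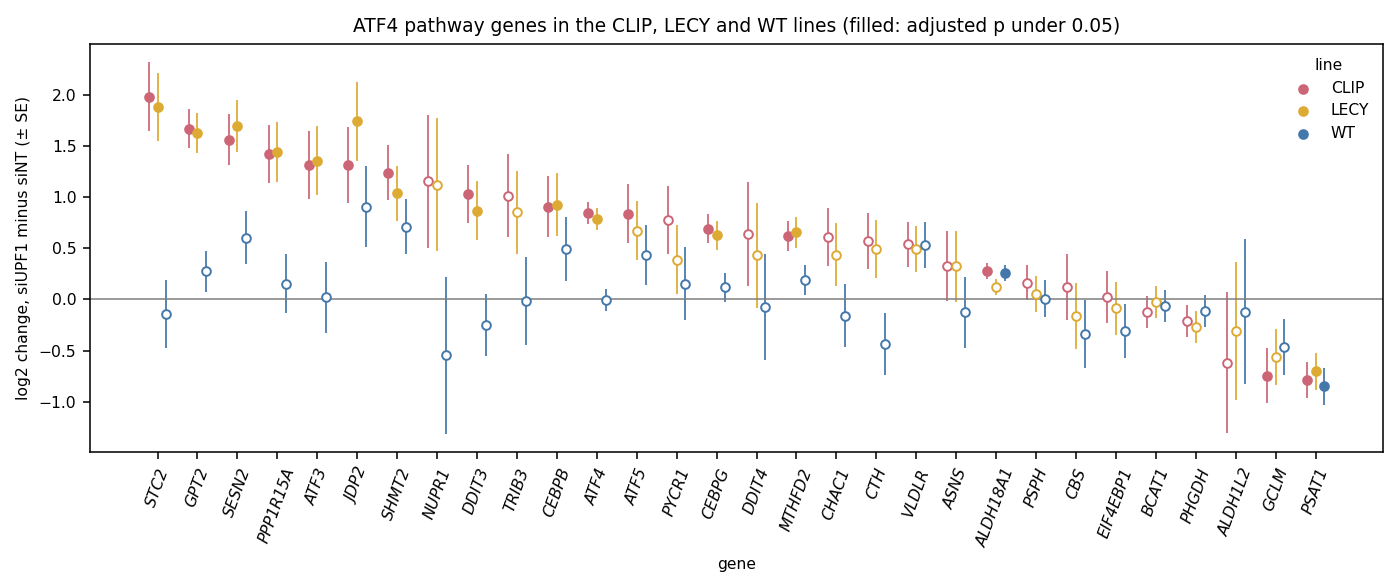
Log2 change with siUPF1 against siNT (vertical axis, ± 1 SE) of the 30 ATF4 pathway genes (horizontal axis, ordered by their change in CLIP) in the CLIP, LECY and WT lines, 3 libraries a group; filled points have an adjusted p under 0.05 (edgeR). CLIP and LECY have 14 and 12 filled points above 0, WT has 1, and PSAT1 at the right end is below 0 in all 3 lines.

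Of 41 amino acid transporters outside the 10, 18 were tested. In CLIP 4 of them rose, near the 18.1% of all genes, and 1 fell, beside 15.6%, with a median of 0.11. SLC1A1, a glutamate transporter, fell by 1.699, from 17.9 ± 1.14 to 5.55 ± 0.60 CPM (SD, n = 3). SLC38A7, a lysosomal SNAT, rose by 1.498, SLC43A2 (LAT4) by 1.08 and SLC6A15, a neutral amino acid transporter, by 0.57. SLC7A6, a light chain of SLC3A2 that exchanges cationic for neutral amino acids, rose by 0.49. In WT 5 rose and 4 fell, beside 8.43% and 6.98% of all genes, where SLC38A7, SLC43A2 and SLC6A15 were among the rises (1.02, 0.64 and 0.45) and SLC1A1 among the falls (-0.57). In LECY 4 rose and 2 fell, beside 15.8% and 13.6%. SLC7A6 alone of the 18 had a knockdown effect that differed in both comparisons, -0.62 between WT and CLIP and 0.61 between LECY and WT.

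Across the 8 siUPF1 group means, the Pearson r between pairs of the 9 transporters ran from 0.42 (SLC1A5 with SLC6A9) to 0.986 (SLC7A5 with SLC1A4). Across the 8 siNT group means it ran from -0.64 to 0.76. These r are descriptions over group means that share the scaling and the replicate numbers. Among the genes most like SLC7A5 were RRN3P3 (r 0.990 over the 16 group means) and TXNDC11 (0.989). Within the 8 siNT groups those r were 0.28 and 0.38. SLC7A11 was most like ALKBH3 (0.975), PCNP (0.971) and TMEM242 (0.967), with 0.936, 0.869 and 0.892 within the 8 siNT groups.

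The 10 genes lie on 9 chromosomes (GENCODE 29, hg38), with SLC7A5 on chromosome 16 from 87830023 to 87869488, SLC7A1 on chromosome 13 from 29509410 to 29595688 and SLC7A11 on chromosome 4 from 138164097 to 138242349, all on the minus strand. SLC3A2 lies on chromosome 11 from 62856102 to 62888875 and SLC1A4 on chromosome 2 from 64988477 to 65023865, both on the plus strand. SLC38A1 (46183063 to 46270017) and SLC38A2 (46358189 to 46372867) lie next to each other on the minus strand of chromosome 12. SLC1A5 lies on chromosome 19 from 46774883 to 46788594 and SLC6A9 on chromosome 1 from 43991500 to 44031467, both on the minus strand. An annotated transcript of the NMD class was present for SLC7A11 (1 of 2 transcripts), SLC3A2 (1 of 23) and SLC38A2 (1 of 14), and 34.1% of 16652 tested genes have at least 1. The counts are per gene and do not separate these transcripts.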

How the data were processed

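The authors deposited 1 table of expected counts per gene for 48 libraries. Reads were processed with cutadapt, STAR, RSEM and DESeq2 on hg38, per the submitters' processing notes. Tool versions, the strand setting and the annotation release are not given in the sources used here, so reads of overlapping or antisense genes cannot be told apart, and 9.16% of the deposited expected counts were not whole because RSEM divides shared reads. Values were rounded to whole counts. Genes were kept with edgeR's filterByExpr (minimum count 10), scaled with TMM factors (0.951 to 1.03) and fitted in 1 model of 16 groups with edgeR 4.0.16 (R 4.3.3, limma 3.58.1; robust quasi-likelihood F test, two-sided, Benjamini-Hochberg over 16697 genes in each of the contrasts, called at adjusted p under 0.05). CPM was computed from the rounded counts and the TMM-scaled library sizes. The SE of a log2 change is its size over the square root of F. The script was checked on simulated counts.

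The 10 members, the gene lists and the tests were chosen with earlier results of these data known. All 10 members are named; of each list, the 4 called genes with the largest change in CLIP and others where needed; ATF4, PSAT1, GCLM, SLC7A6 and the remaining list genes were named after their values were seen. The nearest 3 genes to SLC7A5 and SLC7A11 are those of highest Pearson r over 16 group means of log2 CPM (prior count 2); some results are not reported here. Same-numbered libraries of the 2 siRNAs of a line deviated together from their group means in all 24 pairs (r over 0.1). Over all 66 same-numbered pairs of compared groups, r ran from -0.0991 to 0.493 and 62 were over 0.1, and the 4 below it, all of replicate 1, belonged to FE-ER against WT with siUPF1 and to FE-ER, I757R and IR-ER against WT with siNT. The number was therefore read as pairing the libraries, except those of replicate 1 in these 4 comparisons. The block was still fitted over all 48 libraries, with replicate 1 of these comparisons included. Replicates 2 and 3 had r over 0.1 there as well. The calls, SE and marks in the figures come from the fit without this pairing, unless the block or another alternative is named. For 3 against 3 libraries the smallest two-sided exact permutation p is 0.1. Alternatives were DESeq2 1.42.0, DESeq2-type RLE factors, no expression filter, the replicate block, only the groups of a contrast, and each library left out.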

Additional observations from a re-analysis of the deposited data

Results flagged for a closer look

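The knockdown effect of 8 transporter and line pairs differed between lines by the interaction test (edgeR, adjusted p under 0.05). Between WT and CLIP the difference in log2 change was -0.67 for SLC7A1, -0.95 for SLC7A5 and -1.09 for SLC7A11. Between LECY and WT it was 0.55 for SLC7A1, 0.80 for SLC7A5, 1.21 for SLC7A11, 0.37 for SLC38A1 and 0.92 for SLC1A4. The comparisons share the WT libraries.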

How the results depend on the processing

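Counts of transporter calls are given as reported, then under the alternative. With the replicate block the knockdown calls went from 3 to 7 in F192E, 1 to 2 in I757R, 2 to 4 in IR-ER and 2 to 4 in E797R, and the differences of knockdown effects from 8 to 14. Over all genes the calls rose too, from 3648 to 5773, 2658 to 4756, 2839 to 4715 and 2682 to 4583 in these 4 lines. The pairing changed no count of calls in CLIP, LECY, WT or FE-ER, and moved the siUPF1 comparisons of lines from 14 to 20. Over all genes these comparisons called 0.0479% to 14.1% in either direction without the block and 0.479% to 25.4% with it. Among the 20 was SLC7A5 in FE-ER against WT (adjusted p 0.0497, edgeR with the block). There the deviations of same-numbered libraries had r 0.0869 for replicate 1, and 0.276 and 0.258 for replicates 2 and 3. Without an expression filter F192E gave 6, I757R 2, E797R 4 and the differences 15. The shares are then over 38058 genes, most of the added ones at low counts. Of these, 8.63%, 6% and 5.98% were called in these lines in either direction, and at most 1.63% in a difference. With the filter, 21.8%, 15.9% and 16.1% of 16697 genes were called in these lines. With only the groups of the contrast IR-ER gave 1, E797R 0 and the differences 2. Of all genes, 14.5% and 9.31% were then called in these lines, and at most 2.32% in a difference. The 1 of 9 in IR-ER was below its share. DESeq2 and RLE factors moved no count by over 1.5 times. Leaving out each library in turn gave 7 to 8 calls in CLIP, 7 to 8 in LECY, 1 to 2 in WT, 2 to 3 in F192E, 2 to 2 in FE-ER, 1 to 1 in I757R, 1 to 2 in IR-ER, 1 to 2 in E797R, 10 to 15 for lines with siUPF1, 0 to 0 for lines with siNT and 4 to 8 for the differences. No called value changed sign under these alternatives. The libraries that end a call are named in the report, and the causes were not tested. Depth limits SLC7A3, with at most 7 counts in a library.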
